A study of Mus musculus with 9 samples.

Results

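Neutrophils, the short-lived granulocytes of innate immunity, of C57BL/6 mice, genotype wild type, were sorted from 3 tissues: bone marrow, blood and lung. Each tissue had 3 biological replicates, which gave 9 polyA RNA-seq libraries. No treatment, age, sort marker or pooling of animals is given in the labels, and no group carried a transgene or a deletion. The Nr4a family comprised Nr4a1, Nr4a2 and Nr4a3, which are 3 genes of 24532 and 5 transcripts of 36780 in the deposited series table. The genes were found by symbol, and the family was chosen because earlier results of these data had shown its levels by tissue, so the levels and fold changes of the 3 genes are given as a description, without a test.

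The family encodes orphan nuclear receptors, transcription factors with the zinc-finger DNA-binding domain of nuclear receptors but with a ligand pocket filled by bulky side chains. Their output is set largely by how much protein is made, and the genes are immediate early genes, transcribed within minutes of a stimulus through CREB, MEF2 and other factors already present in the cell. The receptors bind the NBRE, an octamer, as monomers, and NR4A1 and NR4A2 can also pair with the retinoid X receptors. In myeloid cells, Nr4a1 is known for its need in patrolling monocytes and for restraining inflammatory genes.

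Nr4a1 (Nur77; Entrez gene 15370) lies at chr15:101266846-101274794 of mm10 with a single listed transcript of 2476 bases. Nr4a2 (Nurr1; Entrez gene 18227) lies at chr2:57107226-57124003 and Nr4a3 (Nor1; Entrez gene 18124) at chr4:48045305-48086446, each with 2 listed transcripts. No other gene of the series table overlaps any of the 3 loci. The stretches below are the 250 bases before a RefSeq start site of each gene (build GRCm38.p6, the assembly of mm10). For Nr4a2 this is the start of transcript variant 2. The stretches are shown because all 3 hold the same short motif several times over. Capitals mark TGACG or its reverse complement, the core of the cAMP response element (CRE) to which CREB and its relatives bind. Nr4a1 is at chr15:101266596-101266845 on the plus strand, Nr4a2 at chr2:57124004-57124253 on the minus strand, and Nr4a3 at chr4:48045055-48045304 on the plus strand.
Nr4a1: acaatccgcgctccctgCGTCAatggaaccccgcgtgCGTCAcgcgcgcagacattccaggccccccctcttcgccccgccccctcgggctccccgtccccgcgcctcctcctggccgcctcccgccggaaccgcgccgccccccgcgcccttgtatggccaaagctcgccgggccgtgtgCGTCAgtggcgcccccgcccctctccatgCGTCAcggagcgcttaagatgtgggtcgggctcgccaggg
Nr4a2: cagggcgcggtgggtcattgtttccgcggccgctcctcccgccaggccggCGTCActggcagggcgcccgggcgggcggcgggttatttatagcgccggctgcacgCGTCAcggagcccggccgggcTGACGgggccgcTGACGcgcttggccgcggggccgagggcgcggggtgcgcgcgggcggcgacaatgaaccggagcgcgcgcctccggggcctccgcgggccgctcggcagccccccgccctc
Nr4a3: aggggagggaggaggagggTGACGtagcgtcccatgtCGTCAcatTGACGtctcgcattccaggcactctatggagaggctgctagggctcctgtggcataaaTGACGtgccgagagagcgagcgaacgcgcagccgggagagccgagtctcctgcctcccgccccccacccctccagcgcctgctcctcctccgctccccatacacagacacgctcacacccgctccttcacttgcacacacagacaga

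Each of the 3 windows, which run from 250 bases before to 50 after the start, held the CRE core 4 times, counting both strands. Of 32851 such windows for 27025 mouse genes, 20.8% held it at least 1 time and 0.231% at least 4 times. The matches began at -233, -213, -69 and -40 in Nr4a1, at -200, -144, -123 and -111 in Nr4a2, and at -231, -213, -205 and -147 in Nr4a3, counted from the start site along the gene's strand. The full palindromic element TGACGTCA, which contains the core, was found in none of the 3 windows and in 1.79% of all windows. The NBRE AAAGGTCA (1.51% of all windows), the serum response element (1.63%) and the MEF2 site (0.557%) were also without a match in the 3 windows. TATAAA occurred 1 time, in Nr4a2, on the reverse strand, and in 13.6% of all windows. The windows were rich in G and C, at 72.3% in Nr4a1, 81.7% in Nr4a2 and 64.7% in Nr4a3. The Nr4a2 window belongs to the start of its longer-spanning transcript variant 2. Variant 1 starts elsewhere and took most of the gene's reads, 98.3 to 100% in marrow and blood and 86.0 to 92.7% in lung. The start of variant 1 had no window, so its promoter was not examined. A match is a string of letters, and binding was not measured.

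**Figure D1:**
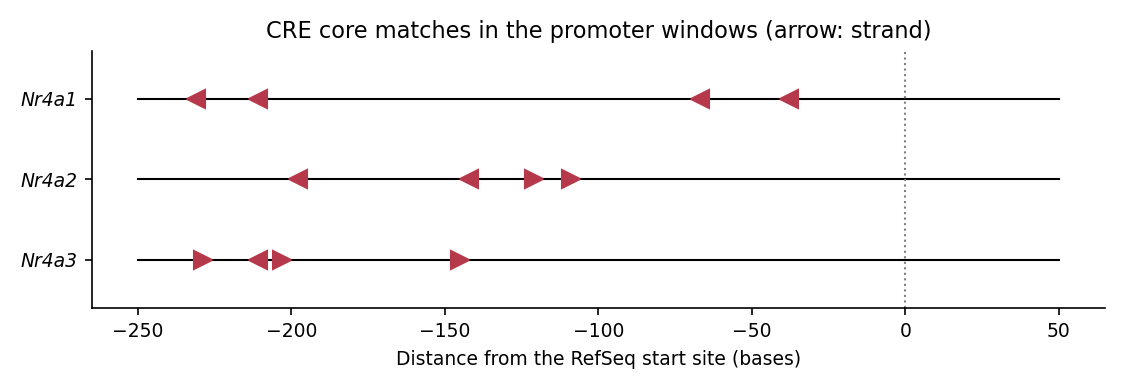
Positions of the 5-base CRE core in the promoter windows of the 3 Nr4a genes, as distance in bases from the RefSeq start site (dotted line). Each arrow is a match and points along its strand; each gene has 4, all upstream of the start.

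Library depth ran from 42045548 to 56796219 estimated reads, and 3 reads corresponded to 0.0528 to 0.0714 CPM (read counts relative to each library's total). All 11 neutrophil markers, such as S100a8, Csf3r and Cxcr2, were above 0 in every library. This does not measure the purity of a sort. The summed level of the 11 was 94231 to 135470 CPM in marrow, 29227 to 42143 CPM in blood and 25154 to 45946 CPM in lung. EdgeR called 1 of the 11 higher and 8 lower in blood than in marrow, and 1 higher and 9 lower in lung than in marrow. Over all tested genes the shares were 8.34% and 13.1%, and 15.6% and 22.6%. Ly6g stood at 418, 490 and 678 CPM in marrow, 22.9, 21.2 and 24.8 in blood and 15.4, 17.4 and 27.0 in lung. Lung replicate 3 stood apart: the summed stromal markers were 1703, 1390.5 and 170 CPM in lung replicates 1, 2 and 3, and the lung epithelial markers 900.2, 279 and 65.9 CPM. Without it, edgeR called 5852 genes between lung and blood against 3900 with it. Calls are those of edgeR's quasi-likelihood fit over 13510 genes, with adjusted p (Benjamini-Hochberg) below 0.05. Of the calls between blood and marrow, 39.0% were higher in blood, 52.6% with upper-quartile scaling. Those higher in lung were 45.6% of calls against blood (56.9% with DESeq2 size factors and 55.9% with upper-quartile scaling) and 40.9% of calls against marrow (52.0% and 59.3%).

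Nr4a1 was abundant in every library, while Nr4a2 and Nr4a3 were low in marrow and blood and high in lung. Levels are given in CPM after TMM scaling (edgeR's trimmed mean of M-values), and as deposited FPKM, which divides by transcript length, where genes are compared with each other. Nr4a1 stood at 1122, 745 and 1099 CPM in marrow replicates 1, 2 and 3. It stood at 1614, 1262 and 1078 CPM in the blood replicates and at 2005, 2607 and 3001 CPM in the lung replicates. The lung libraries lay above all the others, whereas marrow and blood overlapped. The means were 989 ± 211, 1318 ± 272 and 2538 ± 502 CPM (SD, n = 3 in each tissue) in marrow, blood and lung.

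Nr4a3 showed the widest range of the 3 genes. It stood at 55.8, 15.5 and 29.3 CPM in the marrow replicates and at 63.4, 10.1 and 4.39 CPM in the blood replicates. In the lung replicates it stood at 1064, 1429 and 2362 CPM. The lowest lung library was 19.1 times the highest marrow library and 16.8 times the highest blood library, and blood replicate 1 was over all the marrow libraries while blood replicates 2 and 3 were below them. The means were 33.6 ± 20.5, 26.0 ± 32.5 and 1618 ± 669 CPM (SD, n = 3) in marrow, blood and lung, so that in blood the SD exceeded the mean.

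Like Nr4a3, Nr4a2 was highest in lung, at a lower level. It stood at 11.2, 7.68 and 4.78 CPM in the marrow replicates, at 10.8, 5.21 and 1.54 CPM in the blood replicates and at 68.4, 126 and 196 CPM in the lung replicates. Again the lung libraries lay above all the others, the lowest of them 6.11 times the highest marrow and 6.34 times the highest blood library, and marrow and blood overlapped. The means were 7.89 ± 3.22, 5.85 ± 4.66 and 130.1 ± 63.8 CPM (SD, n = 3). Among replicates, blood replicate 3 was the lowest blood library and lung replicate 3 the highest lung library for all 3 genes on the CPM scale.

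**Figure D2:**
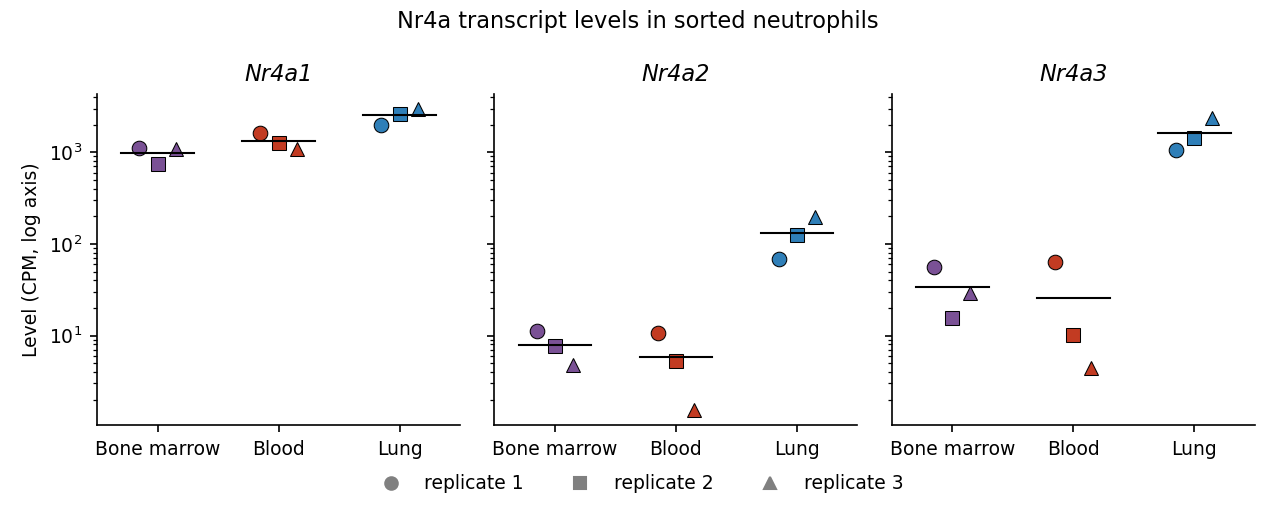
Level of each Nr4a gene in CPM (log axis) in the 3 libraries of each tissue; point shape gives the replicate and the bar the mean of 3. The lung points lie above all others in each panel, by a small margin for Nr4a1 and a wide one for Nr4a3 (1064 to 2362 CPM against at most 63.4 CPM elsewhere).

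From marrow to blood, the log2 fold change was 0.41 ± 0.26 (SE) for Nr4a1, -0.43 ± 0.64 for Nr4a2 and -0.37 ± 0.88 for Nr4a3, with overlapping libraries in each case. These values are given without a test, and the overlap is on the CPM scale. With upper-quartile scaling the log2 fold change of Nr4a1 was 0.57 ± 0.23. Without blood replicate 1 the value for Nr4a3 was -2.13, without marrow replicate 1 it was 0.19, and Nr4a2 and Nr4a3 had signs on either side of 0 when single libraries were left out. In this comparison 8.34% of all tested genes were called higher in blood and 13.1% lower.

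Between lung and blood, the log2 fold change was 0.95 ± 0.26 (SE) for Nr4a1, 4.47 ± 0.72 for Nr4a2 and 5.96 ± 1.08 for Nr4a3. Between lung and marrow it was 1.36 ± 0.27 for Nr4a1, 4.04 ± 0.71 for Nr4a2 and 5.59 ± 1.06 for Nr4a3. In both comparisons all 3 genes had every lung library above every library of the other tissue. The same held for 17.6% of all tested genes against blood and 20.1% against marrow, and 1397 genes (10.3%) had all lung libraries above all 6 others. Both comparisons share the lung libraries, and the family was selected on these values. Without lung replicate 3 the values against blood were 0.78, 4.02 and 5.56, and without blood replicate 1 they were 1.11, 5.31 and 7.83, for Nr4a1, Nr4a2 and Nr4a3 in turn.

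On the deposited FPKM the lung libraries also lay above all others for all 3 genes. Nr4a2 averaged 2.15 ± 1.04, 2.01 ± 1.53 and 38.7 ± 12.1 FPKM and Nr4a3 5.49 ± 3.77, 5.52 ± 5.82 and 276 ± 53.1 FPKM in marrow, blood and lung (SD, n = 3). Nr4a1 stood at 412, 263 and 335 FPKM in marrow, 682, 615 and 440 FPKM in blood and 930, 1163 and 925 FPKM in lung, with no overlap between any pair of tissues. On the log2(FPKM + 0.1) scale the blood against marrow difference of Nr4a1 was 0.78 against 0.41 on the scaled counts. The median over all tested genes was itself 0.30 higher on the FPKM scale in that comparison, 0.14 lower in lung against blood (a shift of -0.14) and 0.17 higher in lung against marrow. Upper-quartile scaling moved the median of all genes by 0.15, 0.16 and 0.32 in blood against marrow, lung against blood and lung against marrow, and DESeq2 size factors moved it by 0.13 in the last. All these shifts are smaller than the lung differences of the 3 genes.

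Compared per length, Nr4a1 led the family in all 9 libraries and Nr4a3 was above Nr4a2 in all 9. Nr4a1 made up 96.9 to 98.5% of the family's summed FPKM in marrow, 97.7 to 99.5% in blood and 71.3 to 79.2% in lung. Nr4a3 made up 0.992 to 2.30% in marrow, 0.361 to 1.75% in blood and 18.7 to 25.1% in lung. The share of Nr4a2 was 0.333 to 0.789%, 0.111 to 0.510% and 2.12 to 3.64% in the same order. The FPKM of Nr4a1 was 42.2 to 99.0 times that of Nr4a3 in marrow, 55.8 to 276 times in blood and 2.84 to 4.23 times in lung. The family's summed FPKM was 345 ± 78.4 in marrow, 586 ± 131 in blood and 1321 ± 159 in lung (SD, n = 3).

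**Figure D3:**
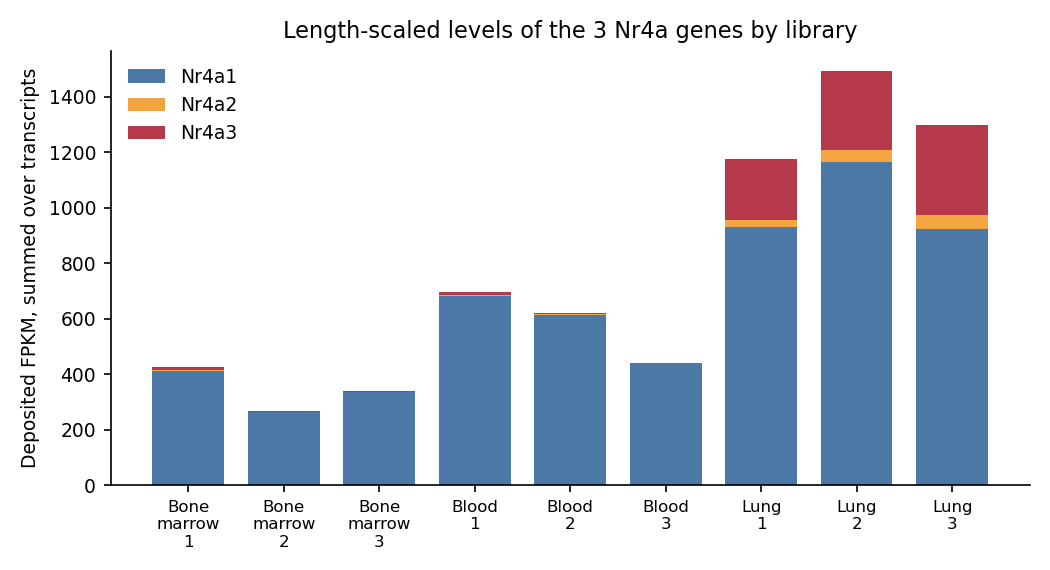
Deposited FPKM of Nr4a1, Nr4a2 and Nr4a3 stacked for each of the 9 libraries, summed over the transcripts of each gene. Nr4a1 fills nearly the whole bar in marrow and blood, while Nr4a3 makes up 18.7 to 25.1% of the bar in lung.

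The rank among all 24532 genes by FPKM placed these levels. Nr4a1 ranked 157 to 264 in the marrow libraries, 77 to 138 in blood and 41 to 65 in lung. Nr4a3 ranked 4125 to 6813 in marrow, 3775 to 7833 in blood and 231 to 386 in lung. Nr4a2 ranked 6556 to 7921, 6648 to 9662 and 1248 to 2225 in the same order. The worst rank of Nr4a1 in any library was thus 264, and that of Nr4a3 in lung 386.

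A separate quantification was deposited for blood and lung, as RSEM values in TPM, a length-scaled unit. Nr4a1 stood at 1186, 1089 and 846 TPM in blood and 1493, 2006 and 1619 TPM in lung. Nr4a2 stood at 7.72, 4.41 and 0.870 TPM in blood and 43.6, 81.2 and 93.7 TPM in lung, and Nr4a3 at 27.9, 12.9 and 5.0 TPM in blood and 337, 490 and 626 TPM in lung. The libraries of the 2 tissues did not overlap for any of the 3 genes on this scale. The same reads underlie both tables, so the second is a check of the counting. The log2 fold changes from RSEM counts were 1.02, 4.65 and 6.05.

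Of the reads of Nr4a2, those assigned to transcript variant 2 were found nearly only in lung. This variant begins at the upstream start whose promoter is printed above. Variant 2 received 4, 0 and 0 reads in marrow, 0, 5 and 0 in blood and 529, 509 and 576 in lung. In lung these were 14.04% (exact 95% interval 12.9 to 15.2), 8.05% (7.39 to 8.74) and 7.31% (6.74 to 7.90) of the gene's reads. In marrow and blood the gene had 68 to 495 reads, and the highest share was 1.67% (exact 95% interval 0.543 to 3.85), in blood replicate 2. In blood replicate 3, with 68 reads, a count of 0 allows a share of up to 4.41% (3 reads), and in the 3 other libraries with 0 it allows up to 0.606 to 1.60%. Variant 1 took 86.0 to 92.7% of the gene's reads in lung. Intervals and floors cover counting error only, and they are too narrow if each fragment was counted 2 times, since the counts were about 2 times those of RSEM.

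Transcript variant 2 of Nr4a3, a short form of 1292 bases at chr4:48051246-48056739 against 5569 bases for variant 1, had another pattern. It received 52, 23 and 7 reads in marrow, 24, 45 and 60 in blood and 35, 36 and 173 in lung. Its share of the gene's reads was at most 2.91% in marrow and 0.182% in lung, but 30.9% (exact 95% interval 24.5 to 37.9) in blood replicate 3, where the gene had 194 reads in all. The reads of variant 1 carried the tissue difference of Nr4a3, at 134 to 2883 in marrow and blood and 58545 to 94937 in lung. How the reads were divided among transcripts is not given in the sources used here.

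**Figure D4:**
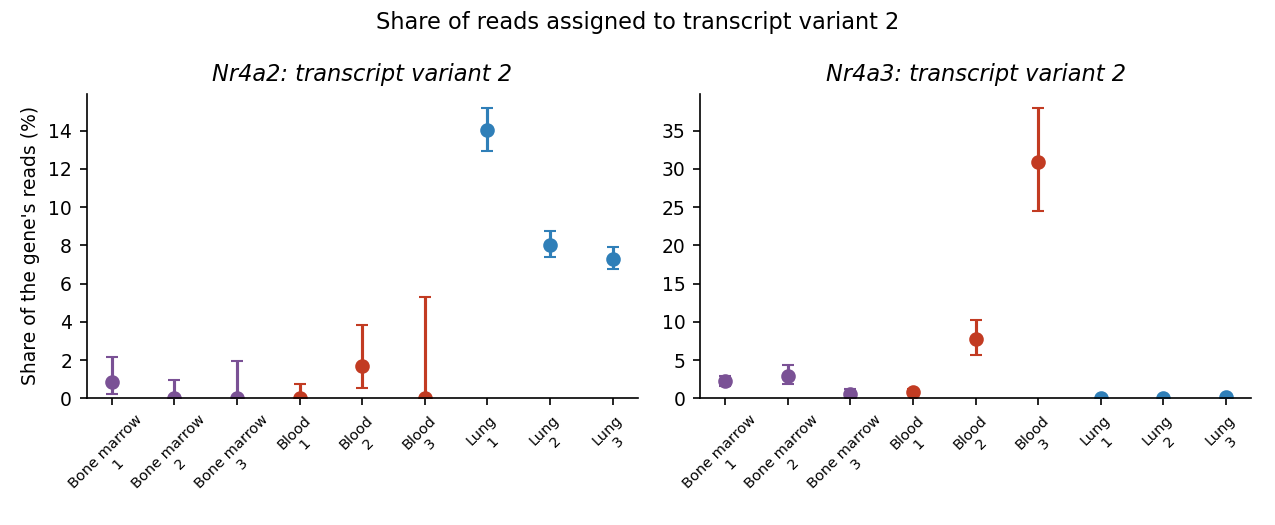
Share of each gene's reads assigned to transcript variant 2 of Nr4a2 (left) and Nr4a3 (right), in percent, by library, with exact 95% binomial intervals. For Nr4a2 the lung libraries stand at 7.31 to 14.04% and the others at or below 1.67%; for Nr4a3 the highest share, 30.9%, is in blood replicate 3.

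Markers of other cells moved with tissue and with library. In bulk samples, fewer cells of a type and less RNA per cell cannot be told apart. Patrolling monocytes are known for high Nr4a1, and the summed level of 7 of their markers, none at 0 in any library, was 121 to 161 CPM in marrow, 155 to 252 CPM in blood and 161 to 176 CPM in lung. In blood it was 252, 227 and 155 CPM in replicates 1, 2 and 3, and Nr4a1 also stood highest in replicate 1 and lowest in replicate 3. The orders differed in the other tissues. In marrow the sums were 121, 138 and 161 CPM, with Nr4a1 at 1122, 745 and 1099 CPM. In lung they were 161, 176 and 163 CPM, with Nr4a1 at 2005, 2607 and 3001 CPM. Most of the marrow sums came from Spn, at 74.3, 84.1 and 94.4 CPM, and Treml4, at 35.4, 42.4 and 50.5 CPM. Of the 7, edgeR called 5 higher and 1 lower in blood than in marrow, with a median log2 fold change of 2.76. In lung against marrow it also called 5 higher and 1 lower, with a median of 0.75, and against blood 0 higher and 1 lower. Of all tested genes, 8.34% were called higher in blood than in marrow and 15.6% higher in lung than in marrow. The part of patrolling monocytes in the level of Nr4a1 was not tested. The 6 classical monocyte markers, none at 0, summed to 920.3 to 1216 CPM in marrow, 682 to 802 CPM in blood and 486 to 545 CPM in lung. Ly6c2 was the largest part in marrow, at 544, 689 and 861 CPM, against 47.4, 60.3 and 49.2 CPM in blood. Csf1r was the largest part in blood, at 505, 501 and 609 CPM. EdgeR called 1 of the 6 higher and 1 lower in blood than in marrow, and 0 higher and 1 lower in lung than in marrow. The median log2 fold changes were 0.91 and 0.57.

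Sums for macrophages, lymphocytes and tissue cells differed among the lung libraries. The 10 macrophage markers summed to 1069.7, 1261 and 252 CPM in lung replicates 1, 2 and 3, the 7 B-cell markers to 462, 413 and 47.3 CPM, and the 10 T and NK cell markers to 138, 145 and 20.0 CPM. The 9 endothelial markers summed to 111, 82.6 and 34.8 CPM. Replicate 3, lowest in each of these sums and in the stromal and epithelial sums, had the highest CPM of Nr4a1, Nr4a2 and Nr4a3. On the deposited FPKM it was highest for Nr4a2 and Nr4a3 but lowest for Nr4a1, and the family's summed FPKM was 1175, 1490.4 and 1297 in lung replicates 1, 2 and 3. The part of these cells in the level of the family was not tested. No marker of these lists was at 0 in a lung library, and in marrow and blood up to 3 of the macrophage, 6 of the endothelial, 2 of the stromal and 5 of the epithelial markers were at 0 in at least 1 library. In the other tissues the ranges were 853 to 1150.4 CPM in marrow and 152 to 198 CPM in blood for macrophages. Most of the marrow sums came from Chil3, a chitinase-like gene, at 934, 799.7 and 1082 CPM in marrow and 787, 926 and 71.3 CPM in lung. The other 9 macrophage markers summed to 48.9 to 68.8 CPM in marrow, 97.0 to 114 CPM in blood and 283, 334 and 181 CPM in lung. EdgeR called 9 of the 10 higher in lung than in marrow, against 15.6% of all tested genes. The median log2 fold change of the 10 was 4.74. B-cell markers summed to 106, 60.9 and 29.5 CPM in marrow replicates 1, 2 and 3 and to 429, 413 and 69.2 CPM in the blood replicates. T and NK cell markers summed to 97.5, 104 and 36.5 CPM in marrow and 51.3, 115 and 19.9 CPM in blood. Replicate 3 was thus lowest in both sums in every tissue. Endothelial markers were at 31.0 to 34.7 CPM in marrow and 33.0 to 49.9 CPM in blood. Stromal markers were at 121, 131 and 276 CPM in marrow replicates 1, 2 and 3 and at 53.0 to 95.1 CPM in blood. Epithelial markers were at 14.3, 8.19 and 73.2 CPM in marrow and 1.34 to 9.21 CPM in blood. In marrow replicate 3 the stromal and epithelial sums exceeded those of lung replicate 3, at 170 and 65.9 CPM. Sftpc stood at 0.0477, 0 and 36.3 CPM in the marrow replicates. The 9 eosinophil, mast cell and basophil markers summed to 15.8 to 87.3 CPM in marrow, 48.5 to 61.6 CPM in blood and 38.5 to 49.7 CPM in lung.

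Upstream of the family, cAMP signalling acts through protein kinase A, CREB and the CRTC coactivators. Of 21 genes of this list, edgeR called 5 higher and 4 lower in lung against blood, and 6 higher and 4 lower against marrow. The list's median log2 fold changes were 0.18 and 0.20, against 0.05 and 0.06 for all tested genes. Of all genes, 13.2% were called higher and 15.7% lower in lung against blood, and 15.6% higher and 22.6% lower against marrow. Leaving out single libraries gave 3 to 5 higher and 1 to 6 lower against blood (3 higher without blood replicate 1 or 2, and 1 or 2 lower without marrow replicate 2, any blood replicate, or lung replicate 1 or 2). Against marrow it gave 5 to 8 higher and 2 to 4 lower (2 lower without any of the marrow replicates, blood replicate 1 or lung replicate 1).

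Crem, which encodes a CRE-binding factor whose inducible short form ICER represses CRE-driven genes, rose in lung with the largest fold change of this list. It stood at 10.01, 7.49 and 8.62 CPM in marrow, 5.38, 4.0 and 3.58 CPM in blood and 113, 102 and 203 CPM in lung. The log2 fold change was 5.01 ± 0.32 against blood (edgeR adjusted p = 0.000129) and 4.0 ± 0.31 against marrow (adjusted p = 3.65e-05). Phosphodiesterases of the PDE4 group, which break down cAMP, were also higher. Pde4b stood at 460, 286 and 360 CPM in marrow, 451, 336 and 273 CPM in blood and 934, 1034 and 1658 CPM in lung, with log2 fold changes of 1.77 ± 0.31 and 1.71 ± 0.30 against blood and marrow (edgeR adjusted p = 0.00353 and 0.00246). Pde4d rose from 7.83, 3.51 and 1.54 CPM in blood to 38.3, 38.1 and 62.8 CPM in lung, by 3.43 ± 0.54 on the log2 scale (4.22 without blood replicate 1). Pde4a was higher in lung than in marrow by 1.68 ± 0.30. Ptger4, a cAMP-raising receptor for prostaglandin E2, fell by 1.19 on the log2 scale (SE 0.22) from marrow to blood (edgeR adjusted p = 0.00576).

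Calcium signalling reaches the family through MEF2 factors, which class IIa deacetylases and CABIN1 hold in check, and through calcineurin and NFAT. Of 16 genes, 1 was called higher and 5 lower in lung against blood, and 2 higher and 5 lower against marrow. Over all tested genes the shares were 13.2% higher and 15.7% lower against blood, and 15.6% and 22.6% against marrow. Median log2 fold changes of the list were -0.35 and 0.15. Against blood 3 were lower without blood replicate 1 or 3, and against marrow none were higher without any of the marrow replicates, and 1 without blood replicate 1 or 2 or lung replicate 1 or 2. Mef2d, which encodes a MEF2 factor, stood at 300, 186 and 201 CPM in blood and 555, 548 and 833 CPM in lung, a log2 fold change of 1.49 ± 0.26 (edgeR adjusted p = 0.0038). Cabin1, whose protein represses MEF2 and inhibits calcineurin, fell by 1.22 (SE 0.15) against blood and by 0.87 (SE 0.15) against marrow. Nfatc1 and Nfatc3, transcription factors activated by calcineurin, had log2 fold changes of -1.39 ± 0.23 and -0.92 ± 0.17 in lung against blood. Ppp3ca, a catalytic subunit of calcineurin, was lower in lung than in marrow, at -0.96 ± 0.17.

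The family's fellow immediate early genes did not share a direction. Of 30 listed, 7 were called higher and 6 lower in lung against blood, and 6 higher (12 with upper-quartile scaling) and 4 lower against marrow. The shares of all tested genes were 13.2% higher and 15.7% lower against blood, and 15.6% and 22.6% against marrow. Median log2 fold changes of the list were 0.34 and 0.35. Leaving out single libraries gave 2 to 6 higher and 3 to 8 lower against blood: 4 higher without marrow replicate 1 or 2 or lung replicate 3, 3 without lung replicate 2, 2 without blood replicate 2 or 3, and 3 lower without blood replicate 3. Against marrow it gave 4 to 8 higher and 4 to 5 lower. Dusp2, a MAP kinase phosphatase gene, stood at 57.5, 47.5 and 42.4 CPM in marrow and 365, 396 and 452 CPM in lung, a log2 fold change of 3.04 ± 0.60 (edgeR adjusted p = 0.0045). Maff, which encodes a small MAF transcription factor, and Csrnp1, which encodes a nuclear protein, were higher in lung than in marrow by 2.85 ± 0.62 and 2.26 ± 0.39. Klf2, the Kruppel-like factor gene linked to quiescence, moved the other way, from 2863, 2693 and 2992 CPM in marrow to 391, 320 and 280 CPM in lung, a log2 fold change of -3.11 ± 0.28 (edgeR adjusted p = 6.94e-05). Fos stood at 2288, 3567 and 3856 CPM in marrow, 3602, 3590 and 7777 CPM in blood and 1487, 2281 and 2813 CPM in lung and passed the test in none of the 3 comparisons, and its blood libraries were all above the lung libraries.

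Of the dimer partners, Rxra stood at 33.6, 38.0 and 50.04 CPM in marrow, 18.3, 23.6 and 26.9 CPM in blood and 29.1, 39.3 and 24.1 CPM in lung. Its log2 fold change in lung was 0.42 ± 0.23 against blood and -0.40 ± 0.23 against marrow, neither of which passed. Rxrb was at -0.81 ± 0.17 in lung against blood and -0.68 ± 0.17 against marrow, both past the threshold, calls lost without blood replicate 1 or 3 in the first. In the other the call was lost in 9 of 16 settings. Among these were the fits without marrow replicate 3, lung replicate 2 or any of the blood replicates, and with DESeq2 size factors. Rxrg was below the filter on low counts, at 0 to 0.109 CPM over the 9 libraries.

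Among 18 tested partners and cofactors of 19 listed, 1 was called higher and 5 lower in lung against blood, and 1 higher and 6 lower against marrow. Among all tested genes, 13.2% were called higher and 15.7% lower against blood, and 15.6% and 22.6% against marrow. Median log2 fold changes of the list were -0.18 and -0.39. Leaving out single libraries gave 0 to 1 higher and 3 to 9 lower against blood (0 higher without blood replicate 2; 3 lower without blood replicate 1 or 3 and 9 without lung replicate 3). Against marrow it gave 0 to 3 higher and 3 to 9 lower (2 higher without marrow replicate 1, 0 without lung replicate 2 and 3 without lung replicate 3; 3 lower without any of the blood replicates). Ep300, which encodes the acetyltransferase and coactivator p300, stood at 484, 485 and 480 CPM in marrow, 486, 427 and 511 CPM in blood and 91.5, 120 and 150 CPM in lung. It fell by 1.98 (SE 0.20) against blood and by 2.0 (SE 0.20) against marrow on the log2 scale (edgeR adjusted p = 0.000423 and 0.00013). Ncoa3, a steroid receptor coactivator gene, fell by 1.47 (SE 0.16) and 1.18 (SE 0.16). Hdac3, the deacetylase of the NCOR corepressor complex, was lower in lung than in marrow, at -0.89 ± 0.14.

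Genes reported elsewhere as targets of the family were drawn mostly from T cells, liver, muscle and brain, and 17 of 22 were tested here. In lung against blood 3 were called higher and 1 lower, and against marrow 1 higher and 1 lower. Of all tested genes, 13.2% were called higher and 15.7% lower in lung against blood, and 15.6% higher and 22.6% lower against marrow. Median log2 fold changes of the list were 1.15 and 0.56, against 0.05 and 0.06 for all tested genes. The list holds many genes near the floor. Among them Fasl, Tnfsf10, Tox, Ikzf2, Foxp3, Pdcd1, Skp2, Slc2a4 and Pfkm were below 5 CPM in every library. Against blood 5 were higher and 2 lower without lung replicate 3 and 0 lower without blood replicate 1. Against marrow 3 were higher and 2 lower without lung replicate 3, and 2 higher without blood replicate 2. Bcl2l11, which encodes the pro-apoptotic BH3-only protein BIM, stood at 89.6, 60.7 and 83.4 CPM in marrow, 87.0, 101 and 116 CPM in blood and 519, 638 and 1021 CPM in lung. Its log2 fold change was 2.84 ± 0.29 against blood and 3.22 ± 0.30 against marrow (edgeR adjusted p = 0.000417 and 7.88e-05). Spp1, the osteopontin gene, was higher in lung than in blood by 2.59 ± 0.54 (3.47 without blood replicate 1). Cited2, which encodes a transcriptional coregulator that binds p300, was lower in lung than in marrow, at -1.16 ± 0.24.

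Heat shock genes, a common sign of stress in handled cells, were mostly higher in lung. Of 13, 10 were called higher and 0 lower in lung against blood, and 8 higher and 0 lower against marrow. Over all tested genes the shares were 13.2% higher and 15.7% lower against blood, and 15.6% and 22.6% against marrow. Median log2 fold changes of the list were 1.33 and 1.10. Limma-voom called 5 and 2 of the 13 higher. No listed gene was lower at an unadjusted p under 0.05 by edgeR (0 in each comparison), and DESeq2 and limma-voom called 0 lower. Against blood 5 were called without blood replicate 2 and 6 without blood replicate 3. Against marrow 3 were called without marrow replicate 2 or 3, 4 without lung replicate 1 and 5 without lung replicate 2. Hspa1a, which encodes an inducible HSP70, stood at 25.5, 22.3 and 92.0 CPM in marrow, 73.7, 21.3 and 19.3 CPM in blood and 1590, 1097 and 216 CPM in lung. The log2 fold change was 4.67 ± 0.97 against blood (5.48 without blood replicate 1) and 4.38 ± 0.95 against marrow (5.31 without marrow replicate 3), with edgeR adjusted p = 0.00815 and 0.00739. Its near-identical neighbour Hspa1b, with which reads can be shared, had 4.97 ± 1.08 and 4.64 ± 1.07 (5.77 and 5.99 without the same libraries). Most of the list, Hspa1a included, was lowest in lung replicate 3, where the 3 Nr4a genes were highest on the CPM scale. Dnaja1 was highest in that library, at 397, 337 and 560 CPM in lung replicates 1, 2 and 3. Hspa8 stood at 1155, 931 and 1089 CPM. On the deposited FPKM, Nr4a1 was lowest in lung replicate 3. The part of cell handling in the levels of the family was not tested, and how the tissues were dispersed is not given in the sources used here.

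**Figure D5:**
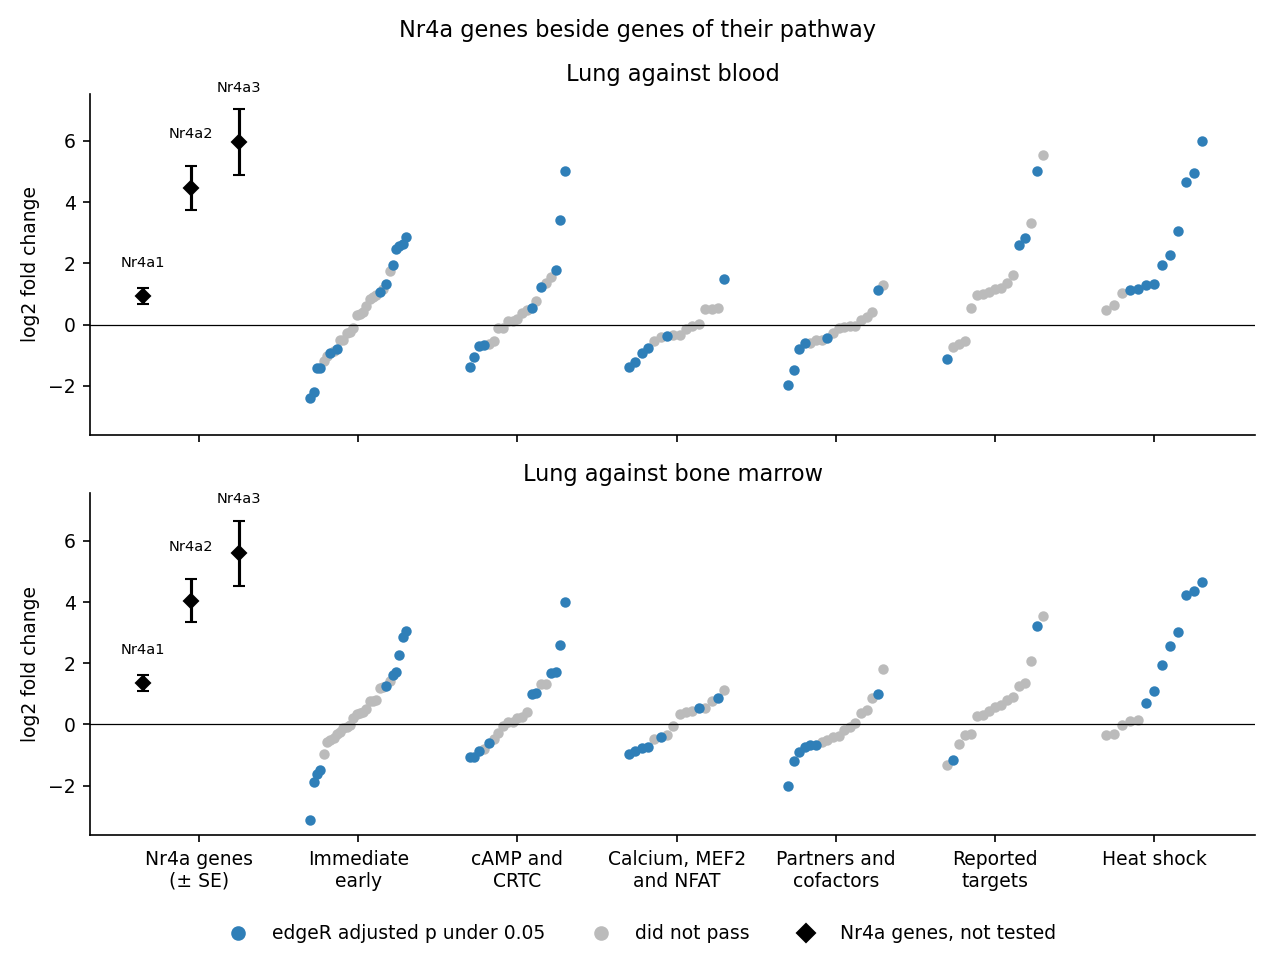
Log2 fold changes of the Nr4a genes (diamonds, ± SE, given without a test) beside the genes of 6 pathway lists, ordered within each list, in lung against blood (top) and lung against marrow (bottom). Blue points passed edgeR's test and grey points did not; heat shock points lie mostly above 0 and immediate early points on both sides.

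Between blood and marrow, where 8.34% of all tested genes were called higher and 13.1% lower in blood, the lists were called as follows. EdgeR called 3 immediate early genes higher and 2 lower of 30, 1 higher and 4 lower of 21 in the cAMP list, 2 and 2 of 16 in the calcium list and 1 and 4 of 18 partners and cofactors. It called 0 higher and 1 lower of 17 reported targets and 0 higher and 3 lower of 13 heat shock genes. For both lists 0 genes were higher at an unadjusted p under 0.05 by edgeR, and DESeq2 and limma-voom called 0 higher. These counts ranged from 0 to 6 over the settings tried, and 19 of the 20 calls named by the rule in this comparison were lost in at least 1 of them.

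Likeness of pattern was measured as the root mean square (RMS) difference of log2 CPM, centred for each gene, over the 9 libraries and against 8456 genes with at least 5 CPM in some tissue. The Nr4a genes themselves and predicted genes were left out of these 8456. The measure is a description over libraries that share depth and scaling. For Nr4a1 the likest genes were Larp1b (0.145), Armcx3 (0.168), Eif3j2 (0.177), Slc39a6 (0.195) and Zc3h12a (0.201), where the median gene was at 0.871. Zc3h12a, which encodes the RNase Regnase-1 that degrades inflammatory transcripts, stood at 240, 195 and 229 CPM in marrow, 423, 219 and 207 CPM in blood and 468, 605 and 787 CPM in lung. As for Nr4a1, blood replicate 1 and lung replicate 3 were the highest libraries of their tissues.

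For Nr4a2 the likest genes were Traf1 (0.368), Vps37b (0.613), Acod1 (0.625), Pvr (0.649) and Crem (0.652), with the median gene at 2.35. Traf1, which encodes an adaptor of TNF receptors, stood at 7.53, 5.92 and 3.53 CPM in marrow, 7.46, 5.65 and 2.11 CPM in blood and 89.8, 98.8 and 161 CPM in lung. Within each tissue its libraries ranked as those of Nr4a2 did. For Nr4a3 they were Acod1 (0.917), Hr (1.05), Il23a (1.06), Tgm2 (1.14) and Traf1 (1.14), with the median gene at 3.25. Acod1, which encodes the enzyme that makes itaconate, stood at 503, 237 and 394 CPM in marrow, 1100.1, 131 and 53.1 CPM in blood and 3954, 4701 and 8702 CPM in lung, like Nr4a3 far higher in blood replicate 1 than in the other blood libraries.

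Within the family, Nr4a2 and Nr4a3 lay at an RMS difference of 1.05, Nr4a1 and Nr4a2 at 1.72 and Nr4a1 and Nr4a3 at 2.61. Set among the 8456 genes, Nr4a2 would take place 3 for Nr4a3, and Nr4a3 place 76 for Nr4a2. For Nr4a1, Nr4a2 would take place 7968 and Nr4a3 place 8297. Nr4a1 would take place 585 for Nr4a2 and 812 for Nr4a3. All 5 likest genes of each member were the same with DESeq2 size factors and with upper-quartile scaling. Leaving out single libraries kept 3 to 4 of 5 for Nr4a1, 1 to 5 for Nr4a2 (1 without blood replicate 3 or lung replicate 3) and 2 to 5 for Nr4a3 (2 without marrow replicate 2 or lung replicate 3).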

How the data were processed

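Per the labels' protocols, a FACS Aria III sorted the cells, a TRIzol-type reagent isolated RNA, and libraries came from a TruSeq mRNA kit, named there both as standard and as stranded. The submitters' processing notes name DESeq2, RSEM, StringTie 2.1.3b, STAR, Bowtie2 and the build mm10. The role of each tool is not given in the sources used here. Per the file headers, the deposited series table holds a read count and an FPKM per RefSeq transcript for all 9 libraries. The authors also deposited RSEM expected counts and TPM per gene for blood and lung, per the file headers. Column numbers in the series table run 1 above the titles' replicate numbers, and the titles' numbers are used.

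Counts and FPKM were summed by gene. EdgeR 4.0.16 (R 4.3.3) kept 13510 genes by filterByExpr, applied TMM scaling and fitted robust quasi-likelihood models of all 9 libraries. Tests were two-sided, and p was adjusted over all tested genes (Benjamini-Hochberg) and held to a threshold of 0.05. The SE was obtained as |log2 fold change| over the root of the F statistic. DESeq2 1.42.0, limma 3.58.1 and expected counts (rounded to whole numbers) served as alternatives. The fit was tested on simulated data.

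Members and lists were chosen with earlier results of these data known. Named genes were, per list and comparison, up to 4 of the passing genes with the largest fold change and at least 5 CPM, plus the Rxr genes and the 5 likest genes of each member. Of 66 passing results so named, 30 kept their call in every setting. A list gene is described as changed only if it did, a restriction set with their values in view, as was the naming of Fos. Promoters came from RefSeq (GRCm38.p6), and windows matched all 3 members.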

Additional observations from a re-analysis of the deposited data

How the results depend on the processing

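The log2 fold changes of Nr4a1, Nr4a2 and Nr4a3 in lung were above 0 in every setting run. Against blood they ranged from 0.78 to 1.11, 3.82 to 5.31 and 5.52 to 7.83, and against marrow from 1.16 to 1.66, 3.59 to 4.36 and 5.19 to 6.14. In blood against marrow, Nr4a1 was 0.78 on log2 FPKM with a pseudocount of 0.1 and 0.78 with 1, against 0.41 on scaled counts. Leaving out single libraries, Nr4a3 ranged from -2.13 to 0.19 in blood against marrow and from 5.52 to 7.83 in lung against blood. The cause was not tested.

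Leaving out single libraries, edgeR called 1236 to 3965 genes in blood against marrow (2892 with all), 1922 to 5852 in lung against blood (3900 with all) and 3258 to 6984 in lung against marrow (5158 with all). The lowest counts came without blood replicate 2, blood replicate 3 and marrow replicate 2, and the highest without lung replicate 3. In blood against marrow the count was also lower without marrow replicates 2 and 3 (1595 and 1665) and blood replicates 1 and 3 (1555 and 1499). In lung against blood it was 2527 and 2338 without blood replicates 1 and 2. Each of these fits has fewer samples.

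With the replicate number as a block, edgeR called 3990, 4751 and 5973 genes, and Nr4a1 was 0.43, 0.95 and 1.38, Nr4a2 -0.52, 4.77 and 4.25 and Nr4a3 -0.72, 6.72 and 6.01 in blood against marrow, lung against blood and lung against marrow. Deviations of same-numbered libraries correlated at 0.0489 to 0.518 in 9 pairs, 8 of them over 0.1, and in 13 of 18 cases a library's best match in another tissue carried its own number, a hint of pairing from the data. No label ties same-numbered libraries to 1 animal or day, and 1 pair was below 0.1, while the rule used here asks for every pair over 0.1, so the fit without the block was kept. DESeq2 gave no adjusted p for 14 genes. Depth limits Nr4a2 in blood replicate 3, at 68 reads.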
